A study of Mus musculus with 6 samples.

Results

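DNA replication and S phase genes were followed as a list of 55 genes named by their function, in mouse acute myeloid leukemia cells with and without the nuclear receptor PPARA. Of the 55, 54 had a probe set paired with exactly 1 gene, out of 30743 genes measured in that way on 6 arrays. Mcm7 was the 1 member left out, because its probe set is shared with the microRNA genes Mir25 and Mir93, which lie inside it. Where a gene had more than 1 probe set, the one with the highest mean over the 6 arrays stood for it. Among the members that was E2f3 alone, whose probe sets gave log2 differences of 0.07 for the one used and -0.05 for the other.

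The leukemias were started by a retrovirus whose single transcript encodes the fusion oncogene MLL-AF9 and green fluorescent protein (GFP). The virus was put into cells of mice with an intact Ppara gene (Ppara+/+) or of mice in which it is knocked out (Ppara-/-). RNA was taken from sorted GFP-positive cells out of the bone marrow of secondary transplant recipients, so both groups carry MLL-AF9 and GFP, and no group without the oncogene is compared here. There were 3 arrays of Ppara+/+ and 3 of Ppara-/- leukemia. The labels do not state whether the replicates were separate primary leukemias or separate animals, so the p-values measure only the spread between these samples.

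A dividing cell copies its genome once per cycle. In G1 phase the origin recognition complex, CDC6 and CDT1 load the ring-shaped MCM helicase onto origins, and geminin keeps CDT1 from doing so again later. In S phase CDC45 and the GINS complex switch the helicase on, polymerases copy both strands behind it with the PCNA clamp, and ribonucleotide reductase and thymidylate synthase supply building blocks. Most of these genes are transcribed in late G1 under the E2F factors, and MLL-AF9 leukemia is a rapidly dividing disease in which this programme is active.

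Every value here is a log2 array signal or a difference of such signals, Ppara-/- minus Ppara+/+, and signals of different probe sets were not set against each other. All 54 members lay above the median of the negative-control probe sets on all 6 arrays. Above the 95th percentile of those controls (7.91 to 8.23) on every array lay 17 members, 26 lay under it on every array, and 11 crossed it. The negative-control median was 5.16 on Ppara+/+ replicate 1 and 4.99 on Ppara-/- replicate 2, against 4.63 to 4.81 on the other 4 arrays. Pairs of arrays correlated with r from 0.984 to 0.996 across genes, and no 2 arrays held identical values. The leukemia marker list of 8 genes, Ptprc, Kit and Mpo among them, had a mean of 9.36 to 9.71 in Ppara+/+ and of 9.36 to 9.59 in Ppara-/- samples. In 3 of the 8 the genotypes did not overlap, against 8.74% of all genes. These were Kit (0.54) and Hoxa10 (0.35) with Ppara-/- above, and Cd34 (-0.87) with Ppara+/+ above. None of the 8 passed an adjusted p of 0.05 (limma), where 0.117% of all genes did. The 5 measured T cell markers had means of 4.42 to 4.72 over the 6 arrays and the 3 erythroid markers of 4.04 to 4.36, at or near the negative-control medians. The 4 B cell markers had means of 5.25 to 5.52, with Cd79b at 7.95, 7.72 and 8.01 in Ppara+/+ and 7.68, 7.49 and 7.32 in Ppara-/- samples (limma adjusted p = 0.618). The 5 markers of stroma and endothelium had means of 5.88 to 6.21, with Pecam1 between 8.42 and 8.96. The 8 late neutrophil markers had means of 9.84 to 10.33, which overlapped between the genotypes. Of them 3 were negative and 5 positive. Retnlg (1.28) and Mmp8 (-0.65), 2 of the 8, did not overlap, against 8.74% of all genes. Of the 8, 0 passed, against 0.117% of all genes. The part of these cells in the results was not tested.

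No member of the replication list passed the test between the genotypes, and most of the 54 genes followed a pattern across single arrays that cut across genotype. The module mean, that is the mean log2 signal over the 54 genes, was 8.12, 7.88 and 7.89 on Ppara+/+ replicates 1, 2 and 3. On Ppara-/- replicates 1, 2 and 3 it was 7.87, 8.03 and 7.65. The genotypes overlapped: Ppara+/+ replicate 1 stood highest, Ppara-/- replicate 2 next and Ppara-/- replicate 3 lowest, while Ppara-/- replicate 1 was level with the remaining Ppara+/+ arrays. The difference of the group means was -0.11 (7.96 ± 0.14 in Ppara+/+ against 7.85 ± 0.19 in Ppara-/-, SD, n = 3), and the range within Ppara-/- alone was 0.38. In bulk RNA a smaller share of cells in S phase and less RNA per cycling cell cannot be told apart.

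Of the 54 members 0 passed an adjusted p of 0.05 (limma, p-values adjusted by Benjamini and Hochberg's method over 30743 genes), where 0.117% of all genes did, and the lowest adjusted p of a member was 0.546. At an unadjusted p under 0.05 stood 2 of 54, E2f2 and Cdc25a, against 5.74% of all genes. In 4 of 54 (7.41%) the genotypes did not overlap, against 8.74% of all genes: E2f2, Ccne1 and Gins1 with Ppara+/+ above, and Rfc2 with Ppara-/- above. Both shares were near the background. The log2 differences of the members ran from -0.39 to 0.37 with a median of -0.11, a 1.07-fold ratio of signals, and 45 of 54 (83.3%) were negative. Over all genes the median was 0.02 and 41.8% were negative. Of the 3895 genes whose mean lay above the 95th percentile of the negative controls 54.5% were negative, against 19 of the 25 members among them (76%). The 95% intervals of all 54 members lay within a log2 difference of 1 in either direction, the outermost bounds being -0.83 and 0.79, and those of 33 lay within 0.5.

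**Figure D1:**
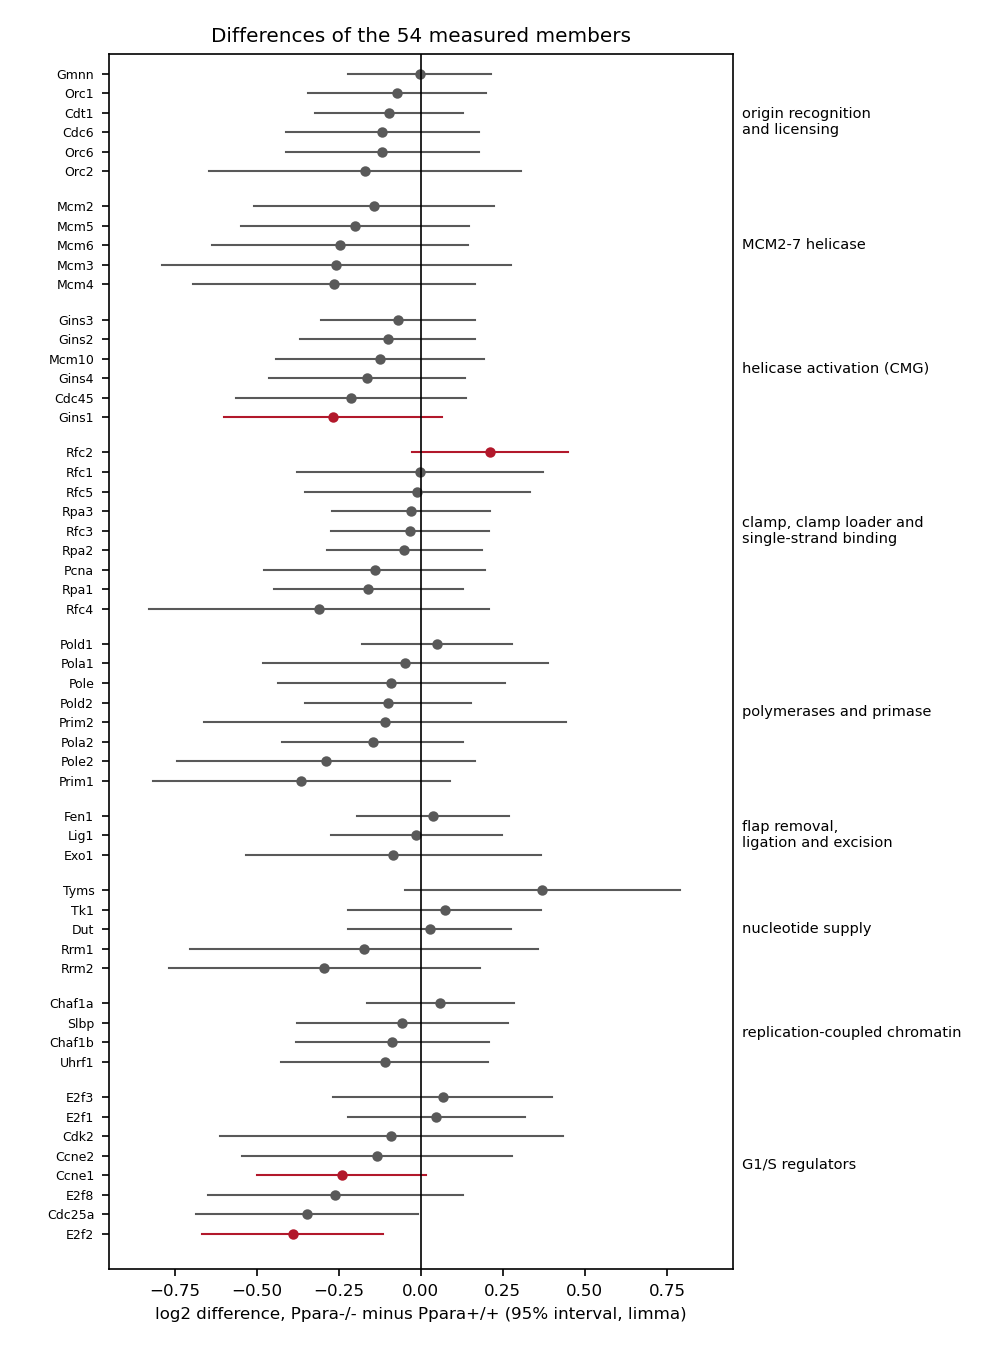
Log2 difference (Ppara-/- minus Ppara+/+, horizontal axis) of each of the 54 measured members with its 95% interval from limma, n = 3 arrays a group, ordered within role groups. Red marks the 4 genes whose genotypes did not overlap. 45 points lie left of 0, and the intervals of all but E2f2 and Cdc25a include 0.

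How many differences were negative depended on 2 arrays. Ppara-/- replicate 3 held the lowest value of 43 of the 54 members (79.6%), where it is the lowest array for 13.9% of all genes. Ppara+/+ replicate 1 held the highest value of 33 members (61.1%), where it is the highest for 19.6% of all genes. That array stood apart over all genes as well, as the lowest of the 6 for 42.8% of them, where each other array was lowest for 5.15% to 13.9%; it was lowest for 3 members. Without Ppara-/- replicate 3 the median difference was -0.01 and 28 members were negative (51.9%, against 44.4% of all genes). Without Ppara+/+ replicate 1 it was -0.02 with 33 negative (61.1%, against 53.2% of all genes). Without Ppara-/- replicate 2, the other array with a high module mean, it was -0.20. The 2 arrays with the highest module means were also those with the highest negative-control medians. With both left out the median stayed at -0.10 with 42 members negative (77.8%, against 46.9% of all genes). That fit called 0 of all 30743 genes, so the 0 called among the members says nothing about them. With the negative-control median as a covariate the median difference was -0.03 with 34 negative (63.0%, against 52.2% of all genes).

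**Figure D2:**
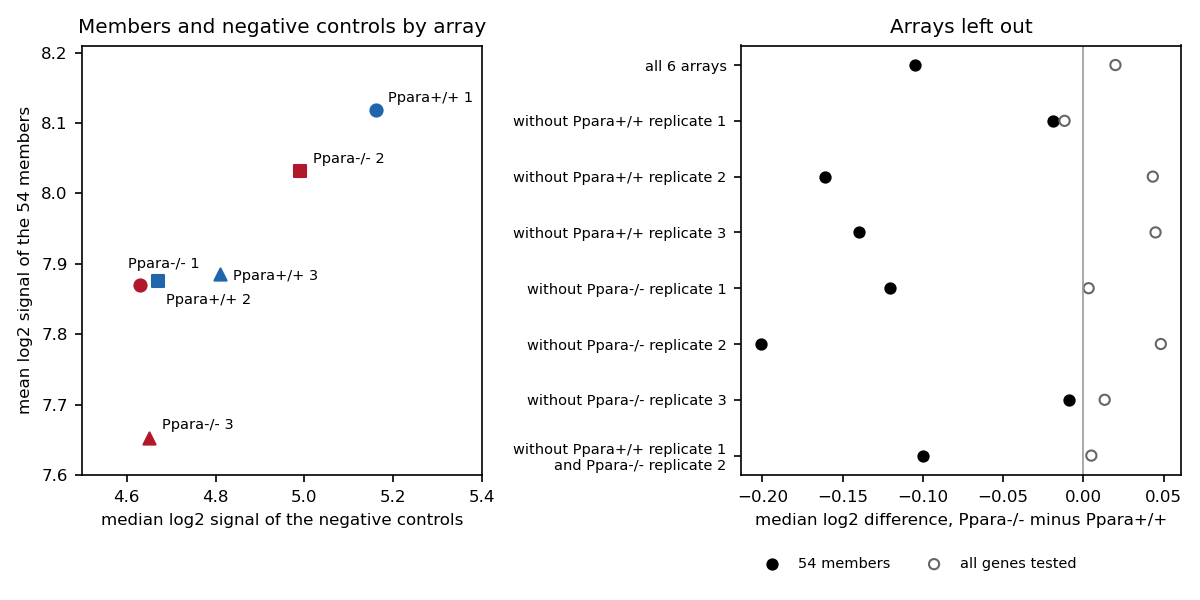
Left, the mean log2 signal of the 54 members (vertical axis) against the median log2 signal of the negative controls (horizontal axis), 1 point per array, blue for Ppara+/+ and red for Ppara-/-. Right, the median log2 difference of the members (filled) and of all genes tested (open) with all 6 arrays and with arrays left out. The member median moves from -0.20 without Ppara-/- replicate 2 to -0.01 without Ppara-/- replicate 3.

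The members followed each other closely from array to array. Each member's 6 values were correlated with the mean of the other 53, as a description over 6 arrays that share their normalization. The same r was not taken for genes outside the list, so how far this course is particular to it was not tested. The median r was 0.87, and 35 of 54 members had an r over 0.8, with Mcm10 and Chaf1b at 0.99. Under 0.5 stood 12 members: E2f1 (-0.76), Rfc2 (-0.38), Pold1 (-0.13), Fen1, Tk1, Gins2, E2f3, Pold2, Dut, Chaf1a, Cdt1 and Tyms. All 9 members with a positive difference were among these 12, and the other 42 were all negative. The r and the difference come from the same 6 values, and the module mean itself had a negative difference. This is therefore not a separate observation.

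**Figure D3:**
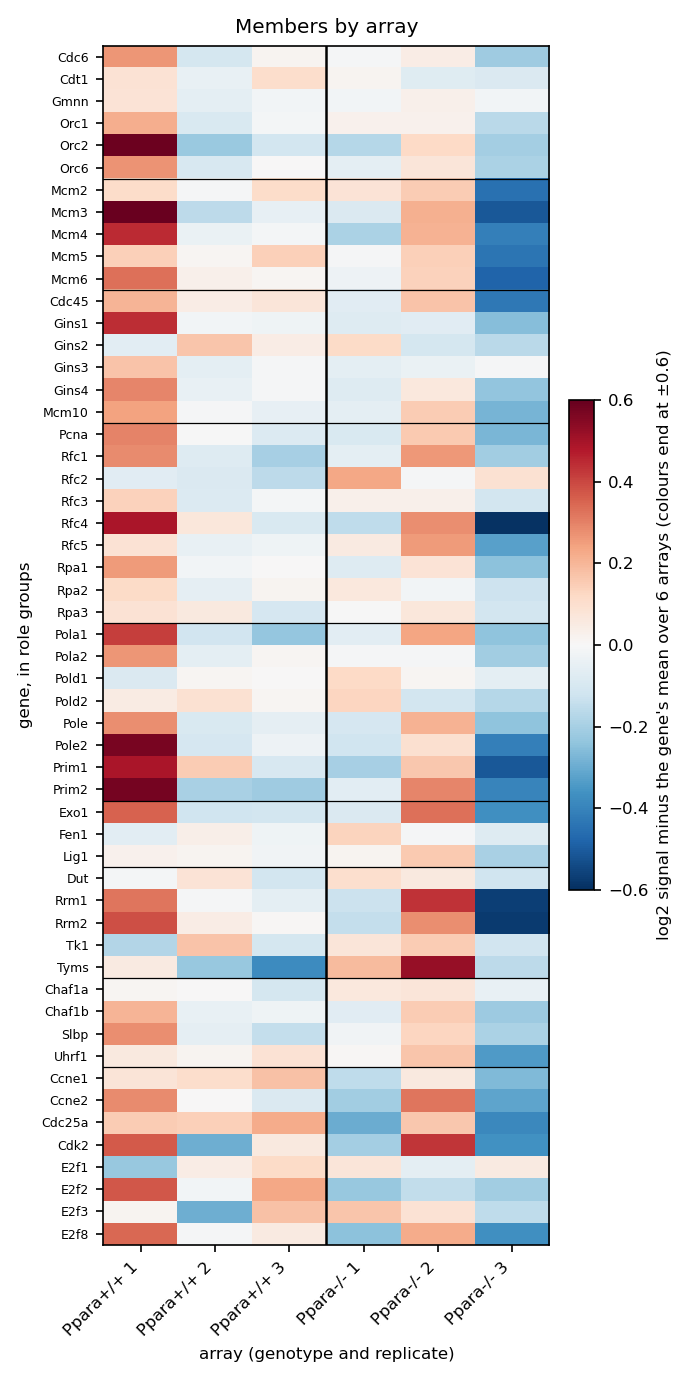
Log2 signal of each member (rows, in role groups) on each of the 6 arrays (columns), as the difference from that gene's mean over the 6 arrays, red above and blue below. Ppara+/+ replicate 1 and Ppara-/- replicate 2 are red in most rows and Ppara-/- replicate 3 is blue in most, with rows such as E2f1, Rfc2, Tk1 and Pold1 apart from this.

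The G1/S regulators, which decide on entry into S phase, held the members with the smallest p. Of 8 genes 6 had a negative difference (median -0.19). The median was -0.10 without Ppara+/+ replicate 1, and -0.08 with 5 negative without Ppara-/- replicate 3. E2f2, a transcriptional activator of replication genes, had signals of 8.33, 7.94 and 8.19 in Ppara+/+ and of 7.73, 7.81 and 7.75 in Ppara-/- samples. All 3 Ppara-/- arrays lay below all Ppara+/+ arrays and close together. The difference was -0.39 (SE 0.12, 1.31-fold; limma unadjusted p = 0.011, adjusted p = 0.546, and 0.124 to 1 in 15 other fits). Cdc25a, the phosphatase that activates CDK2, had 8.39, 8.38 and 8.46 in Ppara+/+ and 7.94, 8.40 and 7.85 in Ppara-/- samples. Here Ppara-/- replicate 2 was level with the Ppara+/+ arrays and the others were lower, with a difference of -0.35 (SE 0.15; limma unadjusted p = 0.046, adjusted p = 0.868, and 0.117 to 1 in 16 other fits).

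Among the other regulators Ccne1, which encodes cyclin E1, the partner of CDK2, had 7.26, 7.29 and 7.36 in Ppara+/+ against 7.03, 7.24 and 6.92 in Ppara-/- samples. The groups did not overlap, though by little, and the difference was -0.24 (SE 0.11; limma adjusted p = 0.921). Its relative Ccne2 was at 6.74 ± 0.19 in Ppara+/+ against 6.61 ± 0.34 in Ppara-/- samples, and Cdk2 at 8.85 ± 0.33 against 8.76 ± 0.42 (SD, n = 3). E2f8, an atypical E2F that represses E2F targets, had a difference of -0.26. The activators E2f1 and E2f3 had differences of 0.05 (SE 0.12) and 0.07 (SE 0.15), both smaller than their SE. That of E2f1 turned negative without Ppara+/+ replicate 1 and with the negative-control median as a covariate.

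Promoter sequences were looked at for the letters that E2F factors are known to bind, as a feature that the list did not use. RefSeq promoter windows (GRCm38.p6, 250 bases before to 50 after a start) were available for 44 of the 54 measured members. Searched on both strands were TTTCCCGC, TTTGGCGC, TTTCGCGC and TTTGCCGC, which may overlap each other. At least 1 window of 17 of the 44 members (38.6%) held such letters, against 2.61% of the 27025 genes with a window and 3.29% of the protein-coding ones. CCAAT, the box bound by NF-Y, was in the windows of 29 members (65.9%), against 41.1% of all genes. The median difference was -0.10 in the 17 members with E2F letters (15 negative) and -0.12 in the 27 without (21 negative). Windows of 4 members follow, in lower case with E2F letters in capitals: the 2 genes with the smallest p, the MCM gene with the smallest p, and Tyms, which had the largest positive difference. That of E2f2 is chr4:136172024-136172323 on the + strand, 1 of 2 windows of the gene, with the letters beginning 39 bases after the start. That of Cdc25a is chr9:109875329-109875628 on the + strand with letters at -67. The Mcm6 window, chr1:128359656-128359955 on the - strand, has 3 matches at -110, -106 and -47, the first 2 of which overlap. The Tyms window, chr5:30073576-30073875 on the - strand, has none. A match describes the letters of the window and nothing more.
E2f2: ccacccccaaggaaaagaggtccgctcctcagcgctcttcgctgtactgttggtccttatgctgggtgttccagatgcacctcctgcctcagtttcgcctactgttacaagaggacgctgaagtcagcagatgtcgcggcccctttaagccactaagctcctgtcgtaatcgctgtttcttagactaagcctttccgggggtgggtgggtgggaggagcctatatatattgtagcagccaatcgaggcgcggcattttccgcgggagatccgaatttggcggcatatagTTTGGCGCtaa
Cdc25a: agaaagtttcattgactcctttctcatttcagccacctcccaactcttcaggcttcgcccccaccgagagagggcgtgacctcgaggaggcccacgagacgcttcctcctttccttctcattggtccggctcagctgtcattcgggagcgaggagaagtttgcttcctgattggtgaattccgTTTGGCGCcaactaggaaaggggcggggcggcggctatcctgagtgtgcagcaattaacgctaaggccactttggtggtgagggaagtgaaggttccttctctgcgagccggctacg
Mcm6: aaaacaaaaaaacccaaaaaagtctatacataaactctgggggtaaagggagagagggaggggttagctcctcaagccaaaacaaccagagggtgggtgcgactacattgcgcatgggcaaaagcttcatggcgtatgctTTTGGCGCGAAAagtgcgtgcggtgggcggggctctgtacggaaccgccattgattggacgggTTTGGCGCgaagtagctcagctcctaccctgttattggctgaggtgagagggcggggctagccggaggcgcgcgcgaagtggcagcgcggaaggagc
Tyms: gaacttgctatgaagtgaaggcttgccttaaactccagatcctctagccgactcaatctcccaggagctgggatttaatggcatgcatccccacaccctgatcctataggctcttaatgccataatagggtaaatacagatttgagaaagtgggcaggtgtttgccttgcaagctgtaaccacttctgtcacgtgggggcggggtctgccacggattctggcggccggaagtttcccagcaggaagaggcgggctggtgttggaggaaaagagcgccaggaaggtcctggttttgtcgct

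Origin licensing genes gave small differences. All 6, Orc1, Orc2, Orc6, Cdc6, Cdt1 and Gmnn, had negative values between -0.17 and -0.00 (median -0.11), although Gmnn turned positive with quantile normalization over the named genes. Cdt1, which brings the MCM ring to origins, had 8.64, 8.51 and 8.66 in Ppara+/+ and 8.57, 8.48 and 8.47 in Ppara-/- samples. The groups overlapped within a narrow band, with a difference of -0.10 (SE 0.10; limma adjusted p = 0.998). Orc6, the smallest subunit of the origin recognition complex, had 8.14, 7.77 and 7.87 against 7.81, 7.94 and 7.68. Its highest value was on Ppara+/+ replicate 1 and its lowest on Ppara-/- replicate 3 (difference -0.12, SE 0.13). Without Ppara+/+ replicate 1 the licensing genes split into 3 negative and 3 positive.

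The MCM helicase genes followed the array pattern to different degrees. Mcm3, Mcm4 and Mcm6 had an r of 0.98, 0.97 and 0.97 with the other members, and Mcm2 and Mcm5 of 0.83 and 0.86. In Mcm2 and Mcm5 Ppara+/+ replicate 1 was level with replicate 3 (9.55 and 9.83), and Ppara-/- replicate 3 was lowest (8.99 and 9.25). All 5 measured subunits had a negative difference, between -0.26 and -0.14 (median -0.25), and kept that sign under the 3 other scalings. Mcm6 had 9.67, 9.37 and 9.35 in Ppara+/+ and 9.31, 9.48 and 8.86 in Ppara-/- samples. Mcm4 had 9.55, 9.06 and 9.09 against 8.91, 9.31 and 8.69. In both genes Ppara-/- replicate 3 was lowest and Ppara+/+ replicate 1 highest, and the groups overlapped through Ppara-/- replicate 2. The differences were -0.25 for Mcm6 (SE 0.17) and -0.26 for Mcm4 (SE 0.19; limma adjusted p = 0.998 for both). The mean of the 5 genes was 9.74, 9.38 and 9.46 against 9.37, 9.59 and 8.96. The median of the 5 differences was -0.12 without Ppara+/+ replicate 1, and without Ppara-/- replicate 3 it was -0.07 and Mcm2 turned positive.

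Genes that switch the loaded helicase on were likewise all negative, 6 of 6 with a median of -0.14, also under the 3 other scalings. Without Ppara+/+ replicate 1 the 6 stayed negative with a median of -0.08, and without Ppara-/- replicate 3 with one of -0.07. Gins1, a subunit of the GINS complex, had 7.20, 6.74 and 6.73 in Ppara+/+ and 6.68, 6.69 and 6.50 in Ppara-/- samples. The groups did not overlap, but 4 of the 6 values lay within 0.06 of each other. Its difference was -0.27 (SE 0.15; limma adjusted p = 0.998). Cdc45, which holds helicase and GINS together, had 9.19, 9.03 and 9.06 against 8.92, 9.16 and 8.56. It followed the module, with Ppara-/- replicate 3 apart from the rest (difference -0.21, SE 0.15). Mcm10, Gins2, Gins3 and Gins4 had differences of -0.12, -0.10, -0.07 and -0.16.

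The clamp, its loader and the single-strand binding proteins held the 1 member with higher values in every Ppara-/- sample. Of the 9 genes 8 were negative (median -0.03), against 4 without Ppara+/+ replicate 1 and 3 without Ppara-/- replicate 3 (median 0.01 in both). Rfc2, a small subunit of the clamp loader RFC, had 8.73, 8.71 and 8.64 in Ppara+/+ and 9.03, 8.79 and 8.89 in Ppara-/- samples. Its groups did not overlap, and the difference was 0.21 (SE 0.10; limma unadjusted p = 0.0759, adjusted p = 0.956). Rfc4, another subunit of that complex, had 7.87, 7.45 and 7.29 against 7.23, 7.66 and 6.79. Its values spread widely within both groups around a difference of -0.31 (SE 0.23). The remaining loader subunits Rfc1, Rfc3 and Rfc5 had differences between -0.03 and -0.00, with Rfc1 and Rfc5 turning positive under quantile or cyclic loess normalization. Pcna, the clamp itself, was at 9.56 ± 0.20 in Ppara+/+ against 9.42 ± 0.22 in Ppara-/- samples, and Rpa1, Rpa2 and Rpa3, the subunits of the single-strand binding protein RPA, had differences of -0.16, -0.05 and -0.03.

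Among the polymerase and primase genes 7 of 8 were negative (median -0.11), and 4 of 8 without either Ppara+/+ replicate 1 or Ppara-/- replicate 3. Prim1, the catalytic subunit of primase, had 8.17, 7.83 and 7.58 in Ppara+/+ and 7.48, 7.84 and 7.17 in Ppara-/- samples. Pole2, a subunit of the leading-strand polymerase epsilon, had 8.03, 7.36 and 7.43 against 7.34, 7.56 and 7.05. In both the groups overlapped through Ppara-/- replicate 2. The differences were -0.36 for Prim1 (SE 0.20) and -0.29 for Pole2 (SE 0.20; limma adjusted p = 0.998 for both). Pola1, Pola2, Prim2, Pole, Pold1 and Pold2 had differences between -0.15 and 0.05. Of the genes for finishing lagging strands, Exo1, an exonuclease, had 7.38, 6.91 and 6.92 against 6.94, 7.36 and 6.66, and the flap nuclease Fen1 had 7.21, 7.31 and 7.25 against 7.41, 7.27 and 7.20. Neither showed a separation, with differences of -0.08 (SE 0.20) and 0.04 (SE 0.10). The DNA ligase gene Lig1 had -0.01, which turned positive under quantile and cyclic loess normalization. Of these 3 genes 2 were negative, against 1 without Ppara+/+ replicate 1 and 0 without Ppara-/- replicate 3.

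Nucleotide supply genes had differences of both signs, 2 negative and 3 positive, with a median of 0.03. Without Ppara-/- replicate 3 they were 1 negative and 4 positive. Tyms, which makes thymidylate, had 7.85, 7.57 and 7.42 in Ppara+/+ and 7.99, 8.32 and 7.64 in Ppara-/- samples. Ppara-/- replicates 1 and 2 lay above all Ppara+/+ arrays and replicate 3 among them. The difference of 0.37 (SE 0.18, 1.29-fold) was the largest positive one of the list and did not pass (limma unadjusted p = 0.0763, adjusted p = 0.956). Rrm2, the S phase subunit of ribonucleotide reductase, had 9.10, 8.76 and 8.72 against 8.57, 8.99 and 8.14. Its Ppara-/- values spanned the whole range of the gene below Ppara+/+ replicate 1 (difference -0.29, SE 0.21). Tk1, a salvage kinase for thymidine, had 7.93, 8.28 and 8.00 against 8.18, 8.26 and 7.99, with complete overlap (difference 0.07, SE 0.13). Rrm1 and Dut, a dUTP-degrading enzyme, had differences of -0.17 and 0.03.

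Genes that rebuild chromatin on copied DNA stayed within -0.11 and 0.06. Of the 4 genes 3 were negative, against 2 without Ppara+/+ replicate 1 and 0 without Ppara-/- replicate 3. Uhrf1, which guides maintenance DNA methylation to new strands, had 8.93, 8.89 and 8.96 in Ppara+/+ and 8.88, 9.04 and 8.53 in Ppara-/- samples. Chaf1b, a subunit of the histone chaperone CAF-1, had 7.36, 7.11 and 7.13 against 7.09, 7.31 and 6.94. Both overlapped between genotypes, with differences of -0.11 (SE 0.14) and -0.09 (SE 0.13). Without Ppara-/- replicate 3 the difference of Uhrf1 was 0.03. Chaf1a, the partner of Chaf1b in CAF-1, was at 8.27 ± 0.07 in Ppara+/+ against 8.33 ± 0.07 in Ppara-/- samples (SD, n = 3). Slbp, which binds histone mRNA, was at 7.46 ± 0.22 against 7.40 ± 0.16.

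**Figure D4:**
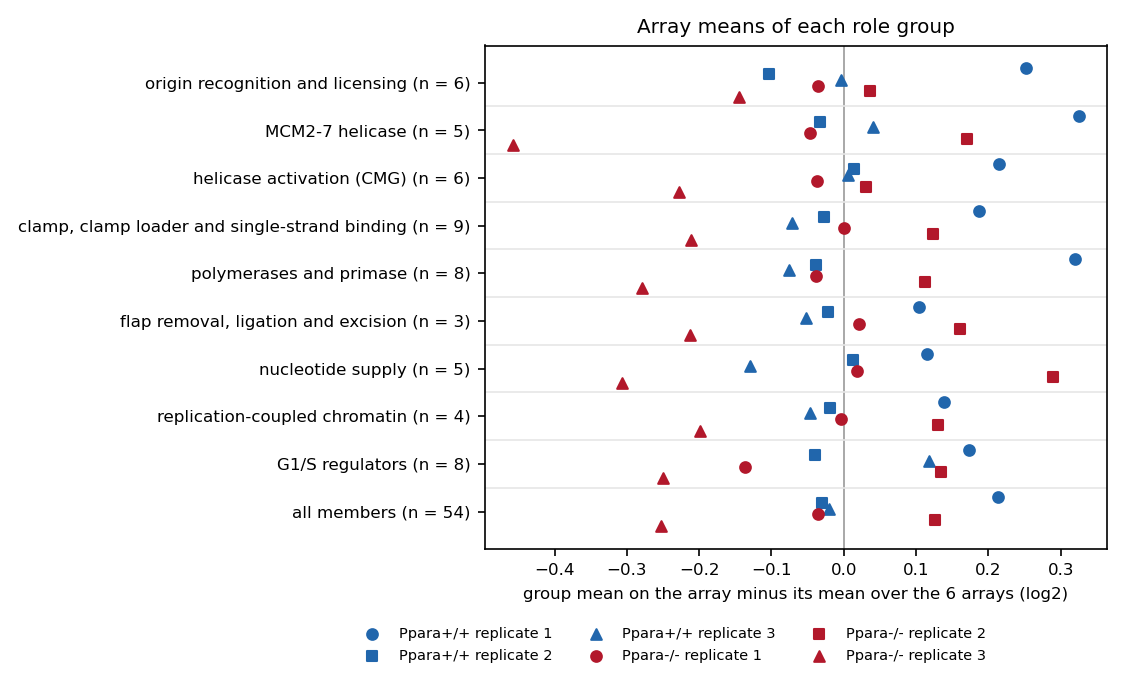
Mean of each role group on each array, as the difference from that group's mean over the 6 arrays (log2, horizontal axis), with blue for Ppara+/+, red for Ppara-/- and the shape for the replicate number. Ppara-/- replicate 3 is the lowest point in each row, and the genotypes overlap in all 9 role groups and in the 54 members.

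Other genes of the same processes were taken from 5 lists of 93 genes, of which 85 were measured. None passed an adjusted p of 0.05, where 0.117% of all genes did, and 7 of 85 had an unadjusted p under 0.05, against 5.74% of all genes. Their median difference was -0.10 with 64 negative, 20 positive and Recql4 at 0, where 41.8% of all genes were negative. By list, 21 of 30 other origin and fork genes, 8 of 10 other nucleotide genes, 8 of 8 other chromatin duplication genes, 16 of 24 other G1/S control genes and 11 of 13 checkpoint and repair genes were negative. The lowest adjusted p belonged to Cdkn1c, which encodes the CDK inhibitor p57, with 6.64, 6.68 and 6.92 in Ppara+/+ and 7.76, 8.02 and 7.51 in Ppara-/- samples. Its groups were clearly apart, with a difference of 1.02 (SE 0.15; limma adjusted p = 0.0645), and it passed in 2 of 15 other fits (adjusted p 0.0112 to 0.324). Ccnd2, which encodes cyclin D2, had 5.49, 5.77 and 5.59 against 6.36, 6.08 and 6.22, also without overlap (difference 0.60, SE 0.12; limma adjusted p = 0.185), and passed in 1 of 15 (0.0213 to 0.737). Samhd1, which degrades nucleotides, had 9.01, 8.70 and 8.71 against 8.32, 8.07 and 8.37 (difference -0.55, SE 0.13; limma adjusted p = 0.274). Cdkn1a, which encodes the CDK inhibitor p21 and was singled out after its values were seen, had 9.09, 8.92 and 9.52 against 8.07, 8.27 and 8.62, without overlap (difference -0.86, SE 0.19; limma adjusted p = 0.224). The genotypes did not overlap in these 4 genes, which were picked by p or after their values were seen. The p57 and p21 genes differed in opposite directions, and none of the 4 passed the test. These 4 were among 8 of the 85 genes without overlap, a share near the 8.74% of all genes. The others were Pold4, Dna2, Cdk4 and Skp2, each with Ppara+/+ above. Pold4 and Wdhd1 of the fork list had differences of -0.32 and -0.36, Dctd of the nucleotide list -0.13, Asf1b and Nasp of the chromatin list -0.25 and -0.28, and Usp1 and Rad18 of the repair list -0.34 and -0.38, all at an adjusted p of 0.839 or higher.

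Genes of mitosis, read beside the replication list, had a like course over the arrays. The mean of 13 measured genes, Mki67, Plk1 and Aurka among them, was 8.97, 8.67 and 8.59 in Ppara+/+ and 8.50, 8.98 and 8.33 in Ppara-/- samples, with 12 of 13 differences negative and a median of -0.16. The difference between the replication list and these genes was not tested. Monocyte and macrophage markers followed genotype instead: 10 of 14 measured markers were negative, the array means of the list were 7.91 to 8.20 in Ppara+/+ and 7.26 to 7.65 in Ppara-/- samples, and the log2 of the summed signal was 13.74 to 14.12 against 13.45 to 13.59. Clec4a1 was the 1 marker that passed (limma adjusted p = 0.0101), where 0.117% of all genes did, and it passed in 11 of 15 other fits. The mean of 2 of the 14 lay under the negative-control median. On Ppara-/- replicate 2 this list was at its lowest while the replication list was at its highest for that genotype. The part of such markers in the small differences of the replication genes was not tested.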

How the data were processed

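RNA was measured on 6 Affymetrix arrays, grouped by the sample titles. The authors deposited log2 signals. RMA and limma are named, with no version, per the submitters' processing notes. The genome build is not given in the sources used here. RMA equalises the arrays' distributions, so a shift shared by most genes would be lost. Of 72688 rows, 6732 were controls; a platform table paired 31216 with 1 gene, 1534 with several and left 33206 unnamed. Symbols were updated by gene ID (RefSeq, GRCm38.p6).

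All 30743 genes were fitted with limma 3.58.1 in R 4.3.3 (lmFit, eBayes, two-sided, no covariate, no filter on dim genes), with Benjamini-Hochberg adjustment over all of them and a threshold of 0.05. SE and intervals are moderated. The fit was tested on simulated data. Counts and figures were made in Python 3.11.15 (matplotlib 3.10.9, pandas 2.3.3). The number of arrays limits the precision. The members and lists were chosen with earlier results of these data known. Values in every array are given for the 2 members per role with the smallest p and the 3 largest positive differences, and of the other lists the 2 genes with the smallest p are named; further genes were singled out after their values were seen.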

Additional observations from a re-analysis of the deposited data

How the results depend on the processing

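The count of members past the threshold was 0 in each of the 16 other fits. These changed the prior, the normalization, the filter, the probe set rule, the weights, the block, a covariate or the arrays. In the main fit the count was also 0 at an adjusted p of 0.1 and was 2 at an unadjusted p under 0.05. The other fits called few genes of any kind. They called 0 of 30743 without the 2 arrays highest in negative controls, 1 of the 3895 genes above the negative controls, and at most 277, with array weights. A count of 0 among 54 members therefore says little about the members. The median difference ran from -0.14 to -0.03 in the fits on all 6 arrays. With 1 array left out it ran from -0.20 to -0.01, and the difference of the module means from -0.20 to -0.01. The number of negative members was 28 to 46 with 1 array left out. It was 19 of 25 when only genes above the negative controls were kept, which tests fewer members. Array weights gave 35 negative members, with a weight of 0.244 for Ppara+/+ replicate 1 and 3.59 for Ppara-/- replicate 1.

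Of the 19 members chosen for values on every array and the 10 other pathway genes chosen by p, 5 changed sign in at least 1 fit; further members with small differences did so too, some of them named with their groups. Exo1 was at 0.069 with the negative-control covariate and ran from -0.27 to 0.08 with 1 array left out, above 0 without Ppara+/+ replicate 1 (0.07) or Ppara-/- replicate 3. Fen1 ran from -0.022 (without Ppara-/- replicate 1) to 0.083, Uhrf1 from -0.22 to 0.033 (without Ppara-/- replicate 3) and Dctd from -0.24 to 0.015 (without Ppara-/- replicate 3). Dctd was at 0.014 with array weights, and Tk1 at -0.055 without the pair of arrays highest in negative controls. The cause was not tested. Same-numbered arrays did not deviate together (correlations of -0.33, -0.47 and 0.11 across genes), so the numbers were not taken as pairs. With the replicate number as a block the median difference was -0.11, 45 members were negative and 0 were called, against 12 of all genes.

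In a design of 3 against 3 a log2 difference near the median of the members is about the size of its own SE (median 0.14 over the members), so differences of this size were not detectable.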
